A study of Mus musculus with 7 samples.

Results

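The genes of the Trem2 lipid-associated macrophage program were followed in single-cell RNA profiles of mouse tumors with and without radiotherapy (RT). The program was taken as 7 genes fixed by name, Trem2, Tyrobp, Apoe, Gpnmb, Lpl, Fabp5 and Cd9, of the 33696 genes measured. No expression cutoff was used to pick them, but earlier results of these data were known when they were chosen. The tumors were subcutaneous flank allografts of JW23.3 cells, which carry mutant Nf1 and Trp53 and come from a mouse malignant peripheral nerve sheath tumor (MPNST). They were grown in wildtype C57/B6 female mice of 5 to 6 weeks, which were randomized on day 7. The irradiated group held 4 tumors that received 5 fractions of 2 Gy, the control group held 3 tumors that received no radiation, and all were taken on day 21, digested with papain and loaded at 10000 cells per library. As all tumors came from a single line, the data describe its allografts and not MPNST in general, and each tumor was 1 library and 1 replicate.

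TREM2 is a receptor of macrophages, microglia and osteoclasts that binds lipids and lipoproteins, and it signals through the adaptor TYROBP, also called DAP12, to the kinase SYK. Macrophages that take up fat or cell debris, in obese adipose tissue, in plaques and around damaged neurons, raise a shared set of genes with this receptor. The set holds the lipoprotein APOE, the lipase LPL, the fatty acid chaperone FABP5, the tetraspanin CD9 and the lysosomal glycoprotein GPNMB. Similar cells have been described in tumors.

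The promoter bases of Trem2 and Apoe are shown because the levels of these 2 genes followed each other most closely among the members across cell types. They are the 250 bases before the RefSeq start site in GRCm38.p6, and only 4 of the 7 members (Trem2, Apoe, Gpnmb and Cd9) had such a window. Trem2 lies at chr17:48346151-48346400 on the plus strand and Apoe at chr7:19699189-19699438 on the minus strand, where the first of 3 Apoe windows is shown. Each is written 5′ to 3′ on the gene's strand, with capitals for matches on either strand. The matches are to GAGGAA, the core of PU.1 sites, or to TGANTCA, a loose AP-1 pattern in which N is any base.
Trem2: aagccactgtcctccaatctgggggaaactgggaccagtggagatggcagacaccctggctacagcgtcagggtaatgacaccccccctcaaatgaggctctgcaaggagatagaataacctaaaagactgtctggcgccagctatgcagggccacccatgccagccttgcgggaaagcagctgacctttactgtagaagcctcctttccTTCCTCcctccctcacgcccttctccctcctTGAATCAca
Apoe: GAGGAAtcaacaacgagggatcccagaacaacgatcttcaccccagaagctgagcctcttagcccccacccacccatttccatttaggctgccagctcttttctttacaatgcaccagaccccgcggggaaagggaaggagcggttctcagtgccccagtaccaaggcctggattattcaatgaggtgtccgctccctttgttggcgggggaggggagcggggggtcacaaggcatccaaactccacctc
The Trem2 window held GAGGAA on its other strand at -40 to -35 and TGANTCA at -9 to -3, counted back from the start site, and the Apoe window held GAGGAA at -250 to -245. Of 32851 promoter windows of this length, 23.3% held GAGGAA and 6.75% held TGANTCA. The letters CACGTG, the E-box of MITF and TFE factors, were in neither window and in 6.02% of all. These matches describe the letters only and do not show that a factor binds there.

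The libraries held 2859 to 8452 cells and 53496570 to 153044123 unique molecular identifiers (UMIs, each 1 captured transcript), with medians of 6058.5 to 17930.5 UMIs per cell. After removal of cells beyond 3 median absolute deviations, 34296 of 39537 cells remained, and pairs of libraries shared 3 to 19 cell barcodes. No label or header names a batch, so 2 technical sets were derived from the number of cells, the median UMIs and genes per cell and the mitochondrial share of each library, as the best of 63 splits (share of the variation left within sets 0.489, against 0.544 for the next best). Set 1 holds irradiated 1 with controls 2 and 3, and set 2 holds irradiated 2, 3 and 4 with control 1, so the sets are partly the groups. Cells were gated on marker genes that exclude all 7 members. The macrophage gate, defined by phagocyte genes together with C1q genes, Adgre1, Ms4a7, Mrc1 or Fcgr4, held 10768 cells, 863 to 2352 per tumor. Its subsets were Mrc1 C1q macrophages (6339 cells), Fcgr4 Ms4a7 macrophages without an Mrc1 UMI (1167), cycling macrophages (1027), inflammatory macrophages (598, from Chil3, Slfn4, Clec4e, Arg1 and Il1rn), osteoclast-like macrophages (441, from Acp5, Atp6v0d2, St18, Ocstamp and Mmp9) and other macrophages (1196). Monocytes with Ly6c2 held 351 cells, dendritic cells 303, tumor cells without Xist or Ptprc 13922, T/NK cells 1148 and endothelial cells 549. Levels are CPM, the UMIs of a gene per 1000000 UMIs in the summed cells of a gate and tumor, given where the tumor had at least 20 such cells, which left out irradiated 1 for monocytes and irradiated 1 and control 2 for inflammatory macrophages.

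Trem2 and its adaptor Tyrobp were far higher in macrophages than in tumor cells. Tyrobp was not particular to macrophages, at 991 to 1665 CPM in dendritic cells and 27.8 to 155 CPM in T/NK cells. In macrophages Trem2 stood at 624, 562, 620.1 and 546 CPM in irradiated tumors 1 to 4 and at 646, 582 and 585 CPM in controls 1 to 3. Tyrobp stood at 1623, 1528, 1598 and 1679 CPM in the irradiated tumors and at 1652, 1628 and 1603 CPM in the controls. These levels were even from tumor to tumor, and the groups overlapped for both genes. In tumor cells the highest value was 3.86 CPM for Trem2 and 7.99 CPM for Tyrobp, so no tumor came near the macrophage range. The difference of tumor cells from macrophages was -8.61 ± 0.19 (SE) on the log2 scale for Trem2 and -8.86 ± 0.18 for Tyrobp (edgeR quasi-likelihood test with the tumor as a block, adjusted p = 1.08e-11 and 8.11e-12), lower in 7 of 7 tumors.

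Apoe, which encodes the lipoprotein that carries cholesterol out of macrophages, was also far higher in macrophages than in tumor cells. Its macrophage level was 15676, 10733, 10342 and 8069 CPM in irradiated tumors 1 to 4 and 12700.5, 11341 and 15579 CPM in controls 1 to 3. The highest value, in irradiated 1, was close to that of control 3, which belongs to the same technical set. The other control of that set stood at 11341 CPM, below the 12700.5 CPM of control 1 in the other set, so the sets overlapped. Tumor cells gave 22.2 to 58.0 CPM, and the difference from macrophages was -8.83 ± 0.20 (edgeR quasi-likelihood test, adjusted p = 1.45e-11).

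Fabp5, the chaperone of intracellular fatty acids, and Cd9, a membrane tetraspanin, were not confined to phagocytes. Macrophages held Fabp5 at 155, 113, 154 and 116 CPM in irradiated tumors and at 146, 203 and 272 CPM in controls, whereas tumor cells ran from 183 to 439 CPM. For Cd9 the macrophage values were 156, 89.5, 157 and 90.2 CPM in irradiated tumors and 149, 229 and 229.7 CPM in controls, and tumor cells ran from 302 to 469 CPM. Both genes were higher in tumor cells than in macrophages in 7 of 7 tumors, by 0.32 ± 0.11 for Fabp5 (adjusted p = 0.0144) and 0.82 ± 0.16 for Cd9 (adjusted p = 0.000595, both edgeR quasi-likelihood test). The Fabp5 call was lost with stricter gates (adjusted p = 0.744) and without the tumor block (adjusted p = 0.208). Endothelial cells had Cd9 at 373 to 618 CPM, and T/NK cells stood at 44.4 to 62.9 CPM for Fabp5 and 12.8 to 46.3 CPM for Cd9.

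Lpl, the secreted lipase of triglyceride-rich lipoproteins, was a minor transcript of the macrophage gate. It stood at 13.8, 23.6, 14.7 and 4.82 CPM in irradiated tumors and at 13.3, 34.95 and 23.0 CPM in controls, from 1603 UMIs in all. Tumor cells held 0.134 to 0.476 CPM, a difference of -6.86 ± 0.19 (edgeR quasi-likelihood test, adjusted p = 6.91e-11). Gpnmb, a glycoprotein of lysosomes and the cell surface, was scarce in the macrophages, with 223 UMIs in 10768 cells, and no gate and tumor exceeded 16.8 CPM. Its macrophage values were 1.40, 1.05, 1.45 and 2.98 CPM in irradiated tumors and 5.23, 1.36 and 3.09 CPM in controls. It was lower in tumor cells by the fit (-1.06 ± 0.33, edgeR quasi-likelihood test, adjusted p = 0.0107) but lower in 5 of 7 tumors only, with an exact paired sign-flip p of 0.25. Of the 7 members, 5 were lower and 2 higher in tumor cells than in macrophages, against 84.8% of all 14892 genes tested that differed in either direction, 43.7% higher and 41.2% lower. In that comparison the composition scaling of the fit differed from CPM by a median of 0.48 log2 over 2361 genes, and the direction of each member was the same on both scales.

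**Figure D1:**
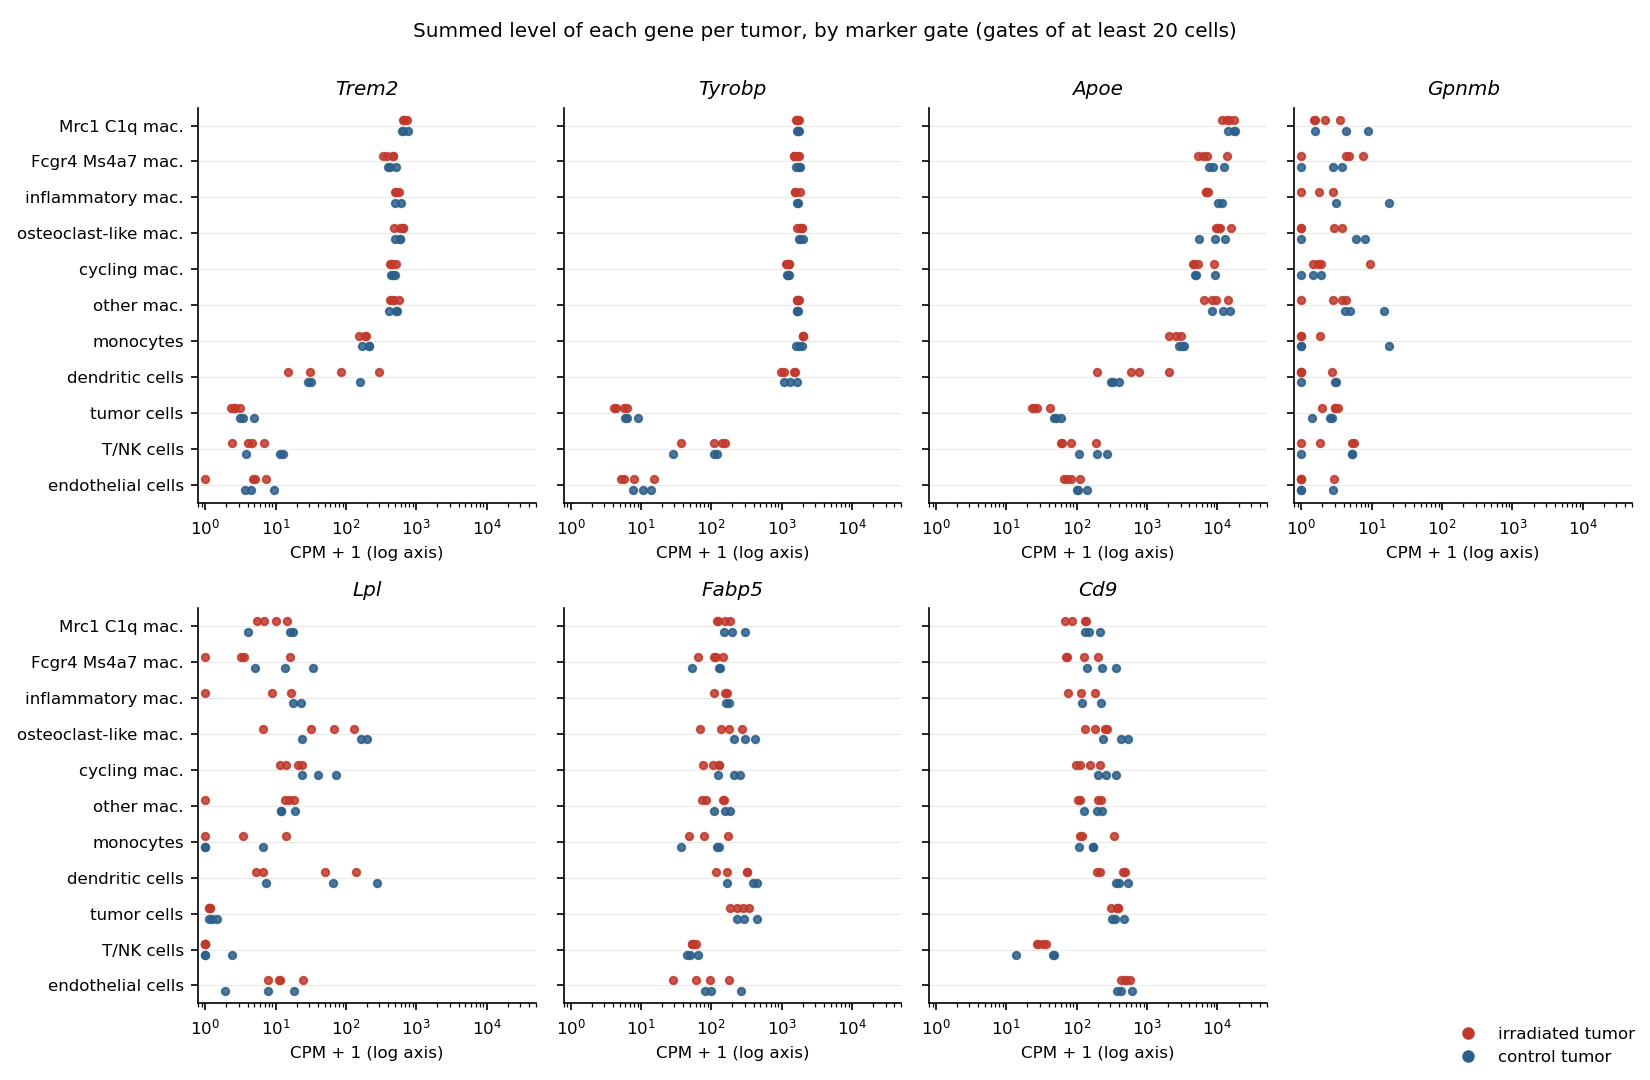
CPM + 1 (log axis) of the 7 members in 11 gates, 1 point per tumor with at least 20 cells in the gate, irradiated in red and control in blue. Trem2, Tyrobp and Apoe stand high in every macrophage gate and at most at 3.86, 7.99 and 58.0 CPM in tumor cells, whereas Fabp5 and Cd9 also stand at 183 to 439 and 302 to 469 CPM in tumor cells, and Gpnmb is at most 16.8 CPM.

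Tumor, T/NK and endothelial cells carried some Trem2 and Apoe UMIs. These were set beside the UMIs of C1qa, C1qb and C1qc, macrophage genes that those cells should lack. Macrophages held 4.46 to 5.34 Trem2 UMIs per 100 C1q UMIs (median 4.89 over 7 tumors). Tumor cells held 4.82 to 9.61 (median 7.81), and T/NK cells 1.59 to 6.42 (median 4.55). For Apoe the median was 98.1 in macrophages, 128 in tumor cells, 95.2 in T/NK cells and 172 in endothelial cells, where the highest tumor reached 420.0. The T/NK ratios lay around the macrophage ratio, and the medians of tumor and endothelial cells were above it. With each cell thinned to 3000 UMIs, 0.495 to 1.09% of tumor cells and 9.04 to 38.0% of T/NK cells had a UMI of Trem2 and Apoe, in that order, against 68.5 to 79.8% of macrophages for Trem2. Free RNA can give UMIs of this kind, and its part in them was not tested.

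**Figure D2:**
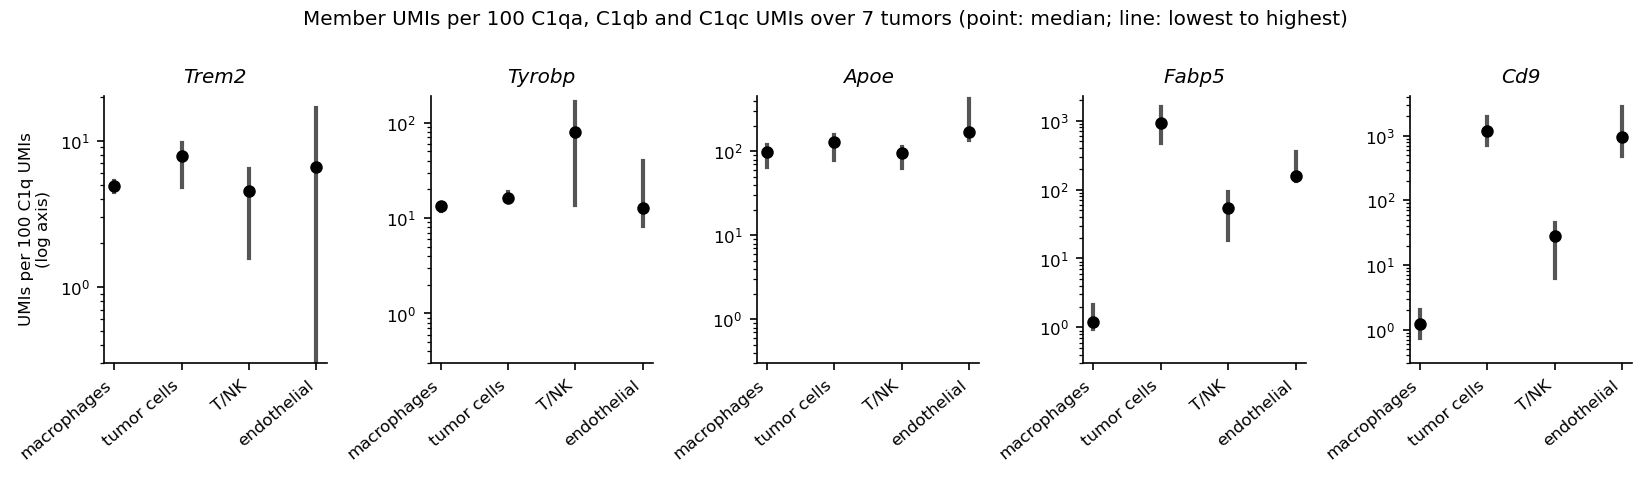
UMIs of Trem2, Tyrobp, Apoe, Fabp5 and Cd9 per 100 C1q UMIs (log axis) in macrophages, tumor, T/NK and endothelial cells, with the median tumor as the point and the lowest and highest tumors as the line, where a line at the lower edge includes a tumor without a UMI of the gene. The Trem2 and Apoe medians of T/NK cells, 4.55 and 95.2, lie beside those of macrophages, 4.89 and 98.1, while the Fabp5 and Cd9 ratios of tumor cells stand far above.

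Monocytes, the blood-derived cells from which tumor macrophages can arise, had the adaptor at the full level and the receptor at a lower one. Monocyte Trem2 was 193, 184 and 151 CPM in irradiated tumors 2, 3 and 4 and 214, 168 and 214 CPM in controls 1 to 3, in each tumor below its macrophages. Tyrobp in the same cells was 1996, 1987 and 2012 CPM in irradiated tumors and 1761, 1598 and 1969.6 CPM in controls. Apoe was 2558, 3014 and 2052 CPM in irradiated tumors and 3379.7, 3128 and 2807 CPM in controls. Trem2 was lower than in macrophages by -1.68 ± 0.13 and Apoe by -2.05 ± 0.10 on the log2 scale (edgeR quasi-likelihood test, adjusted p = 1.72e-34 and 1.2e-82), each in 6 of 6 tumors (exact paired sign-flip p = 0.0312, the smallest that 6 tumors allow). The Tyrobp difference was 0.19 ± 0.11 (adjusted p = 0.171) and passed the threshold only without control 2 (0.33, adjusted p = 0.00324). At an equal depth of 3000 UMIs, 27.6 to 39.0% of monocytes in the 4 tumors with enough cells had a Trem2 UMI.

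Fabp5, Cd9 and Lpl did not separate monocytes from macrophages by this test. Fabp5 ran from 35.6 to 171 CPM in monocytes and Cd9 from 107 to 338 CPM, both overlapping the macrophage range. Lpl reached at most 13.1 CPM, from 15 UMIs in irradiated 4. It had no UMI in irradiated 3, control 2 and control 3, which allows 12.8, 50.5 and 26.7 CPM there. The differences were -0.54 ± 0.32 for Fabp5 (adjusted p = 0.253), 0.24 ± 0.14 for Cd9 (adjusted p = 0.184) and -0.71 ± 0.39 for Lpl (adjusted p = 0.155, all edgeR quasi-likelihood test). Each passed the threshold without 1 particular tumor, Fabp5 without irradiated 2 (-0.90, adjusted p = 1.1e-05), Lpl without irradiated 4 (-2.89, adjusted p = 0.000178) and Cd9 without control 2 (0.38, adjusted p = 0.0205) or control 3 (0.43, adjusted p = 0.0127). Of the 6 members tested 2 were lower and none was higher, against 29.9% of 11120 genes in either direction, 17.3% lower and 12.6% higher.

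Within the macrophages, the receptor and Apoe were highest in the Mrc1 C1q cells. Trem2 was 662, 654, 728 and 679 CPM there in irradiated tumors and 769, 651 and 626 CPM in controls. In Fcgr4 Ms4a7 macrophages it was 467, 333, 461 and 376 CPM in irradiated tumors and 400.4, 521 and 423 CPM in controls, without overlap between the subsets. Apoe fell in the same direction, from 11553 to 17621 CPM in Mrc1 C1q cells to 5359 to 13610.1 CPM in Fcgr4 Ms4a7 cells. The paired differences of Fcgr4 Ms4a7 from Mrc1 C1q cells were -0.68 ± 0.08 for Trem2, -0.85 ± 0.12 for Apoe and -0.72 ± 0.15 for Fabp5 (edgeR quasi-likelihood test, adjusted p = 5.21e-08, 0.0013 and 0.0055), each lower in 7 of 7 tumors (exact paired sign-flip p = 0.0156, the smallest possible). The Fabp5 call was lost without the tumor block (adjusted p = 0.0777). Tyrobp (1487 to 1828 CPM against 1595 to 1775 CPM) and Cd9 (70.7 to 361 CPM against 66.3 to 215 CPM, 0.32 ± 0.19, edgeR quasi-likelihood adjusted p = 0.31) overlapped between the subsets. In all, 3 of 6 members tested were lower and none was higher, against 23.6% of 10223 genes in either direction, 10.8% lower and 12.8% higher. The Fcgr4 Ms4a7 cells were also shallower, with median depths of 3209 to 6188 UMIs per cell against 4322 to 12510.5, and the part of depth in these differences was not tested.

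Inflammatory macrophages, deeper at 7802 to 14181 UMIs per cell, differed from the Mrc1 C1q cells in Apoe and Trem2. Their Apoe level was 7305, 6946 and 6825 CPM in irradiated tumors 2, 3 and 4 and 10157 and 11752 CPM in controls 1 and 3, below the Mrc1 C1q value of the same tumor in 5 of 5. The difference was -0.79 ± 0.06 for Apoe and -0.33 ± 0.06 for Trem2 (edgeR quasi-likelihood test, adjusted p = 1.42e-10 and 0.000478), with an exact paired sign-flip p of 0.0625, the smallest that 5 tumors allow. The Trem2 call was lost without the tumor block (adjusted p = 0.0513). Cd9 differed by 0.21 ± 0.12 (edgeR quasi-likelihood adjusted p = 0.317), and 2 of 6 members tested were lower and none higher, against 12.8% of 10513 genes in either direction, 5.54% lower and 7.28% higher.

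Osteoclast-like macrophages, which carry genes of the bone-resorbing cells of the same lineage, had the highest median Lpl and Cd9 of the macrophage subsets, 66.5 and 254 CPM over the 7 tumors. Their Lpl was 30.7, 129, 66.5 and 5.62 CPM in irradiated tumors and 22.7, 197 and 163 CPM in controls, against 13.4, 9.25, 5.79 and 4.53 CPM and 3.10, 15.3 and 16.7 CPM in Mrc1 C1q cells of the same tumors. Within each tumor the osteoclast-like value was above its partner, although irradiated 4 stood far below the others. Their Cd9 was 254, 179, 265 and 128 CPM in irradiated tumors and 234, 528 and 425 CPM in controls. Lpl was higher than in Mrc1 C1q cells by 3.07 ± 0.37 and Cd9 by 1.10 ± 0.11 (edgeR quasi-likelihood test, adjusted p = 0.00442 and 2.62e-05), in 7 of 7 tumors. The Cd9 call was lost without the tumor block (adjusted p = 0.105). Trem2 differed by -0.25 ± 0.08 (adjusted p = 0.0554) and Apoe by -0.57 ± 0.17 (adjusted p = 0.121), both edgeR quasi-likelihood tests and both lower in 7 of 7 tumors. These 2 depended on the setting. Trem2 was called in 4 of 13 alternatives, with every gene of at least 1 UMI (-0.33, edgeR adjusted p = 0.00266), without the cell filter (-0.26, edgeR adjusted p = 0.049), by DESeq2 (-0.24, adjusted p = 0.0477) and in cells with at least 3 osteoclast markers, chosen after the data were seen (-1.31, edgeR adjusted p = 2.04e-06). Apoe was called in 3 of 13, with every gene of at least 1 UMI (-0.64, edgeR adjusted p = 1.78e-20), by DESeq2 (-0.56, adjusted p = 0.00386) and in those cells (-3.39, edgeR adjusted p = 2.32e-08). Tyrobp differed by 0.12 ± 0.06 (adjusted p = 0.308) and Fabp5 by 0.26 ± 0.15 (adjusted p = 0.39) in the same edgeR test, and Fabp5 passed it without irradiated 4 (0.40, adjusted p = 0.0154). Of 6 members tested 2 were higher and none lower, against 5.49% of 10058 genes in either direction, 3.09% higher and 2.4% lower.

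The subsets held unequal shares of the member UMIs. Mrc1 C1q cells were 58.9% of the macrophages and held 70.4% of their Apoe UMIs, 62.5% of Trem2, 60.5% of Fabp5 and 47.9% of Cd9, but 32.2% of Lpl. Osteoclast-like cells were 4.10% of the macrophages and held 29.4% of the Lpl UMIs and 11.1% of the Cd9 UMIs. Cycling cells, 9.54% of the macrophages, held 26.3% of Lpl and 20.5% of Cd9. These shares set UMIs against cells, so depth enters them, and its part was not tested. Median depths were 9074.5 to 20282 UMIs per cell in cycling, 7647.5 to 17565 in osteoclast-like and 4322 to 12510.5 in Mrc1 C1q cells. By level, cycling cells averaged 143 CPM of Cd9 in irradiated and 274 CPM in control tumors, against 123 and 203 CPM over all macrophages. For Lpl these means were 16.6 and 44.5 CPM against 14.2 and 23.8 CPM. The Trem2 level of cycling cells ran from 417 to 506 CPM and their Apoe level from 4465 to 9223 CPM.

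**Figure D3:**
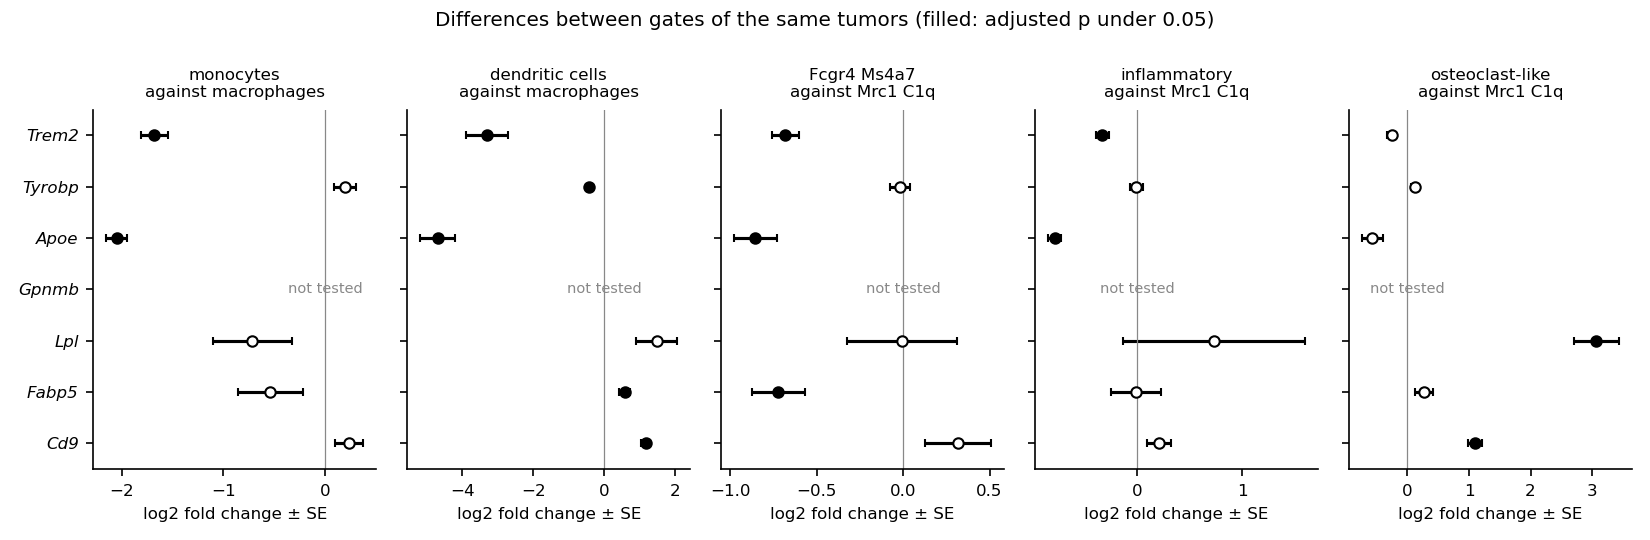
Log2 fold change with its SE for each member in 5 comparisons between gates (edgeR quasi-likelihood test, filled points with adjusted p under 0.05), each panel on its own axis and without Gpnmb where it was not tested. Trem2 and Apoe lie to the left in monocytes, Fcgr4 Ms4a7 and inflammatory macrophages, and Lpl and Cd9 lie to the right in osteoclast-like macrophages at 3.07 and 1.10.

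Most cells with more osteoclast markers lay outside this gate, so an alternative chosen after the data were seen took every cell with at least 3 of the 5 markers. It held 257 cells, of which 147 were in no gate, 51 in the osteoclast-like gate, 38 in the type 1 dendritic gate and 21 in the cycling gate. The osteoclast-like gate needed fewer markers, and only these 51 of its 441 cells were in the alternative. Their pooled levels were 6244 CPM for Acp5 and 8679 CPM for Ctsk, enzymes of osteoclasts. Among the members they had Tyrobp at 2073 CPM, Cd9 at 561 CPM and Lpl at 313 CPM, with Trem2 at 309 CPM and Apoe at 1448 CPM. In the osteoclast-like gate Apoe averaged 11561 CPM in irradiated and 9164 CPM in control tumors, so the values of the gate mostly describe other cells. Against Mrc1 C1q cells, in the 4 tumors with at least 20 such cells, of which 1 was irradiated, Lpl differed by 4.91, Cd9 by 1.84, Trem2 by -1.31 and Apoe by -3.39 on the log2 scale, and Fabp5 by -0.34 (edgeR quasi-likelihood adjusted p = 0.221), the reverse of its sign in the gate.

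Some of these cells, 38 of the 257, had entered the dendritic gate. Of the 99 cells in its type 1 part, which needed any pair of Xcr1, Clec9a, Wdfy4 and Cadm1, only 42 had a UMI of Xcr1 or Clec9a, the genes that define type 1 dendritic cells. In those 42 cells Trem2 had 2 UMIs (3.12 CPM), Apoe was at 51.4 CPM, Tyrobp at 676 CPM and Cd9 at 397 CPM. The other 57 cells had Acp5 at 6382 CPM and Ctsk at 8826 CPM, with Trem2 at 259.5 CPM, Apoe at 1455 CPM, Lpl at 255 CPM and Tyrobp at 2114 CPM. The 7 of them from irradiated 2 gave 109 of 244 Trem2 and 767 of 1368 Apoe UMIs, and without that tumor Trem2 was at 167 CPM and Apoe at 745 CPM. Fabp5 was at 133 CPM, or 75.9 CPM without control 2. The label of these 57 cells is thus not borne out by their markers.

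Dendritic cells as gated had Trem2 at 14.2 to 290.3 CPM and Apoe at 191 to 2048 CPM, with medians of 30.9 and 405 CPM. Trem2 was lower than in macrophages by -3.30 ± 0.60, Apoe by -4.69 ± 0.50 and Tyrobp by -0.43 ± 0.10 (edgeR quasi-likelihood test, adjusted p = 0.0053, 0.000399 and 0.00352). Cd9, at 196 to 530.4 CPM, was higher by 1.16 ± 0.12 (adjusted p = 9.78e-07), and Fabp5, at 116 to 451 CPM, was higher by 0.57 ± 0.16 (adjusted p = 0.0137, or 0.100 without the tumor block, edgeR). Without the cells that lacked Xcr1 and Clec9a, an alternative chosen after the data were seen, Trem2 differed by -5.89, Apoe by -5.90, Tyrobp by -0.84, Fabp5 by 0.92 and Cd9 by 0.91. Lpl, at 1.47 ± 0.58 as gated (edgeR quasi-likelihood adjusted p = 0.0931), had no UMI among the 2574284 of the 246 cells left, which allows up to 1.17 CPM over the group, a level at least 15.3-fold lower than the 17.8 CPM of the pooled macrophages. The gate as first drawn gave 2 members higher and 3 lower of 6 tested, against 33.7% of 11509 genes in either direction, 15.6% higher and 18.2% lower.

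The study asked how fractionated radiation changes the tumor and its immune cells, and for the members this was first tested in all macrophages. The irradiated mean was below the control mean for all 7 members, and none passed the test. Trem2 averaged 588 ± 39.9 CPM (SD, n = 4) after irradiation and 604 ± 36.4 CPM (SD, n = 3) without it, and Tyrobp was 1607 ± 62.5 and 1627 ± 24.4 CPM. Their log2 fold changes were -0.07 ± 0.09 (SE, adjusted p = 0.893) and -0.05 ± 0.09 (adjusted p = 0.923, edgeR quasi-likelihood test). Apoe averaged 11205 ± 3204 CPM after irradiation and 13207 ± 2164 CPM in controls, a change of -0.27 ± 0.23 (edgeR adjusted p = 0.863).

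Fabp5 and Cd9 had larger differences. Fabp5 averaged 134 ± 22.9 CPM after irradiation and 207 ± 63.0 CPM in controls, a change of -0.66 ± 0.22 (unadjusted p = 0.0173, adjusted p = 0.850, edgeR quasi-likelihood test). Cd9 was 123 ± 38.5 and 203 ± 46.3 CPM, a change of -0.76 ± 0.27 (unadjusted p = 0.0241, adjusted p = 0.850, edgeR). For both, controls 2 and 3 stood above all other tumors, and control 1 stood within the irradiated range. Lpl was 14.2 ± 7.67 and 23.8 ± 10.8 CPM (-0.79 ± 0.52, edgeR adjusted p = 0.850), and Gpnmb was 1.72 ± 0.859 and 3.23 ± 1.94 CPM (-0.91 ± 0.48, edgeR adjusted p = 0.850).

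Controls 2 and 3 belong to technical set 1, and the differences of group means in log2(CPM + 1) were also taken within sets. Fabp5 differed by -0.60 in set 1 and -0.21 in set 2, Cd9 by -0.56 and -0.46, and Lpl by -0.99 and -0.13. Gpnmb differed by -0.37 and -1.20. Apoe differed by 0.24 in set 1 and -0.40 in set 2, Trem2 by 0.10 and -0.17, and Tyrobp by 0.01 and -0.05, so that for these 3 genes the sets had opposite signs. Set 1 has 1 irradiated tumor and set 2 has 1 control, so neither gives a test. Over the alternatives Fabp5 ran from -0.86 to -0.41 and Cd9 from -0.94 to -0.50, with adjusted p from 0.290 to 1.00 for each.

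No member was called, and the background was the same, since 0.0% of 12599 genes were called by edgeR, with 693 genes at an unadjusted p under 0.05 and 5 called by DESeq2, none of them a member. The groups did not overlap for 5.33% of all genes and for 0 of the 7 members. The median log2 fold change was -0.66 over the members, which is the Fabp5 value, and -0.01 over all genes. Summed markers of macrophage subsets and of other cells differed in median between the groups in this gate, in both directions and with overlapping ranges. Their part in the member differences was not tested. The 5 osteoclast markers summed to 95.6 to 161 CPM (median 129) in irradiated and 123 to 292 CPM (median 225) in control macrophages. The 5 inflammatory markers summed to 108 to 690.0 CPM (median 378) and 153 to 302 CPM (median 153), and the 9 tumor markers to 20.4 to 52.6 and 46.9 to 96.5 CPM. T/NK markers summed to 4.97 to 19.2 CPM (median 8.51) in irradiated and 3.22 to 7.33 CPM (median 3.22) in control macrophages. Endothelial markers summed to 7.51 to 17.1 CPM (median 12.0) and 6.11 to 9.81 CPM (median 9.72).

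**Figure D4:**
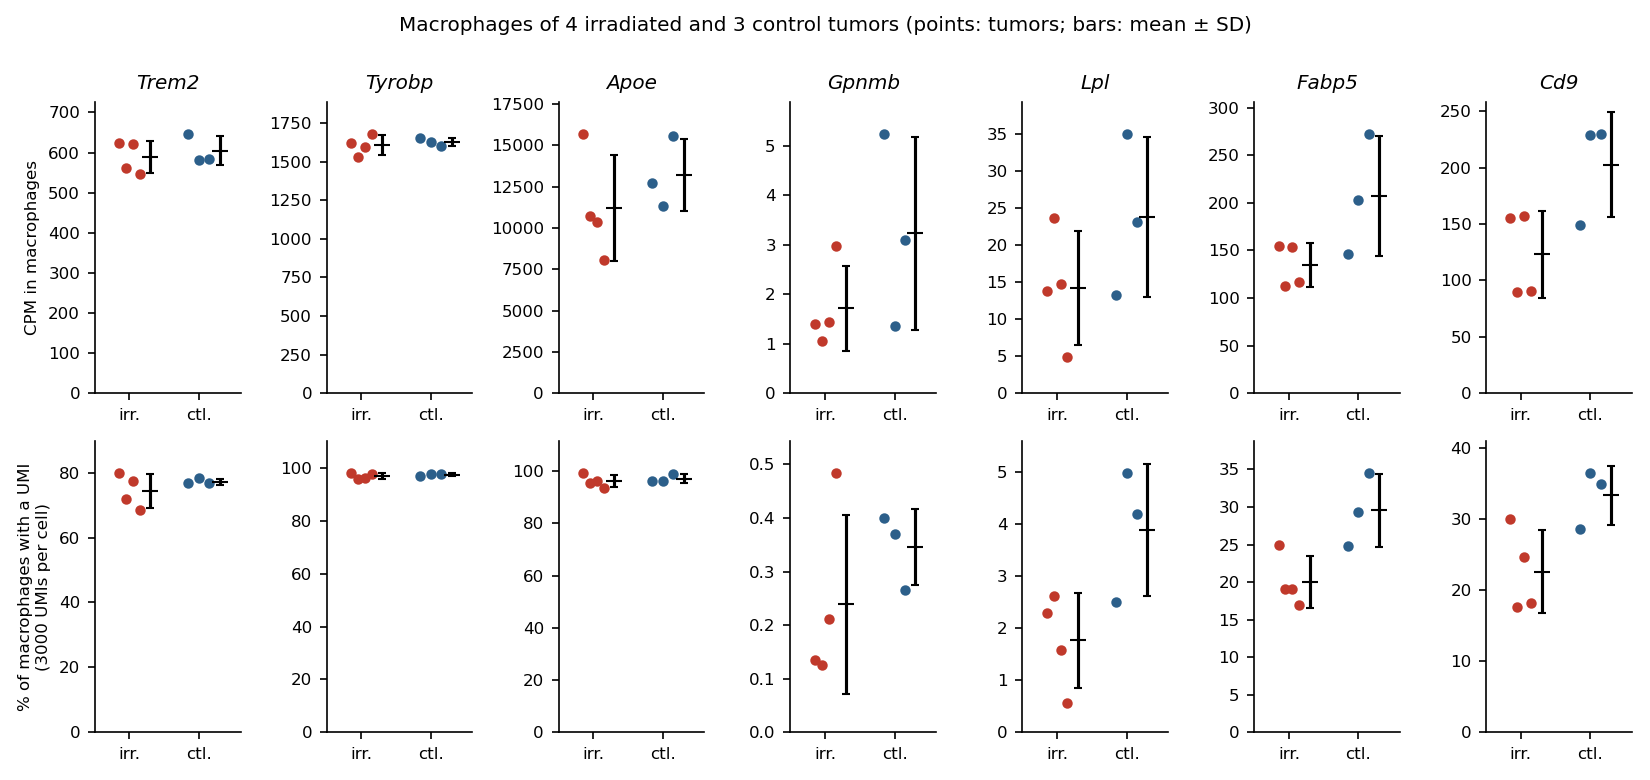
Level in CPM (top) and percentage of macrophages with a UMI at 3000 UMIs per cell (bottom) for each member, 1 point per tumor, with bars at the mean ± SD of 4 irradiated and 3 control tumors. Trem2 and Tyrobp overlap closely, and for Fabp5 and Cd9 controls 2 and 3 lie above the other tumors.

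As the macrophages of the tumors differed in depth, with medians of 4276.5 to 12437 UMIs, the share of cells with a UMI was compared after each cell was thinned to 3000 UMIs. This left out 541 of 5004 irradiated and 1260 of 5764 control macrophages. Trem2 was found in 79.8, 71.7, 77.3 and 68.5% of irradiated and 76.7, 78.3 and 76.7% of control macrophages (74.3 ± 5.16 against 77.2 ± 0.920, exact permutation p = 0.400). Fabp5 was found in 24.9, 19.1, 19.1 and 16.9% against 24.8, 29.4 and 34.5% (20.01 ± 3.41 against 29.6 ± 4.83, exact permutation p = 0.0857). Cd9 was found in 30.0, 17.6, 24.7 and 18.1% against 28.7, 36.4 and 34.9% (22.6 ± 5.86 against 33.3 ± 4.12, exact permutation p = 0.0857). Irradiated 1 thus stood among the controls for Fabp5 and Cd9. Lpl was found in 2.31, 2.63, 1.58 and 0.564% against 2.51, 4.98 and 4.20% (1.77 ± 0.915 against 3.90 ± 1.27, exact permutation p = 0.0571), with a single pair of tumors crossing between the groups.

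Tyrobp and Apoe were close to every macrophage at this depth, 96.8 ± 1.08 against 97.5 ± 0.407% (exact permutation p = 0.429) and 96.2 ± 2.28 against 97.1 ± 1.62% (exact permutation p = 0.571). Gpnmb was found in 0.239 ± 0.168 against 0.345 ± 0.0710% (exact permutation p = 0.343), and in 0.176 to 0.697% of tumor cells. None of the 7 two-sided tests passed 0.05, and 0.0286 was the smallest p that 35 splits allow. Without thinning the means were 38.0 and 43.5% for Fabp5, 41.9 and 47.5% for Cd9 and 87.7 and 86.6% for Trem2, which turned the sign of the Trem2 difference. For comparison, at the same 3000 UMIs 6.12 to 14.3% of T/NK cells had a Cd9 UMI and 8.86 to 14.3% a Fabp5 UMI.

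The irradiation test was repeated within the subsets. In Mrc1 C1q macrophages Fabp5 changed by -0.63 ± 0.25, Cd9 by -0.69 ± 0.29 and Apoe by -0.23 ± 0.15 (edgeR quasi-likelihood test, adjusted p = 0.902 for each), and no member was called, against 0.0% of 11464 genes (576 at an unadjusted p under 0.05, 0 by DESeq2). In Fcgr4 Ms4a7 macrophages Cd9 changed by -1.18 ± 0.50 (adjusted p = 0.853), with no member and 0.0% of 7366 genes called (409 at an unadjusted p under 0.05, 1 by DESeq2). Fabp5 changed there by -0.05 ± 0.37 (edgeR quasi-likelihood adjusted p = 0.990) and had the other sign in 5 of 14 alternatives. Within sets 1 and 2, in that order, the Mrc1 C1q differences in log2(CPM + 1) were -0.66 and -0.14 for Fabp5, -0.41 and -0.50 for Cd9 and 0.12 and -0.39 for Apoe, and the Fcgr4 Ms4a7 difference of Cd9 was -0.55 and -0.66.

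In cycling macrophages the differences in Lpl, Fabp5 and Cd9 were larger than over all macrophages. Lpl was 10.4, 23.1, 20.01 and 12.99 CPM in irradiated and 38.7, 72.3 and 22.6 CPM in control tumors. Cd9 was 210.1, 97.9, 151 and 112 CPM against 198, 365 and 259.6 CPM, and Fabp5 was 127, 74.8, 127 and 105 CPM against 124, 258 and 207 CPM. For each gene 1 irradiated tumor or more crossed the lowest control. The changes were -1.40 ± 0.42 for Lpl, -0.97 ± 0.30 for Cd9 and -0.87 ± 0.26 for Fabp5 (edgeR quasi-likelihood adjusted p = 0.926 for each), with no member and 0.0% of 9837 genes called (506 at an unadjusted p under 0.05, 1 by DESeq2). Within sets 1 and 2 they were -1.87 and -1.05 for Lpl, -0.55 and -0.74 for Cd9 and -0.86 and -0.30 for Fabp5 in log2(CPM + 1). The fitted changes passed the threshold only when every gene with at least 1 UMI was kept, at adjusted p = 0.000271 for Lpl, 0.00926 for Cd9 and 4.81e-05 for Fabp5.

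In osteoclast-like macrophages Fabp5 was 271, 136, 176 and 69.3 CPM in irradiated and 212, 304 and 419.7 CPM in control tumors. It changed by -0.98 ± 0.42 and Cd9 by -0.94 ± 0.30 (edgeR quasi-likelihood adjusted p = 0.826 for each), and again only the fit of every gene with at least 1 UMI called them (adjusted p = 0.00537 and 0.00492). Within sets 1 and 2 the differences were -0.40 and -0.83 for Fabp5 and -0.90 and -0.35 for Cd9 in log2(CPM + 1). No member was called and 0.0123% of 8153 genes were, which was 1 gene, Spp1, named here after its values were seen. Spp1 encodes osteopontin, a secreted phosphoprotein of osteoclasts and tumor macrophages, and belongs to the list of other lipid-associated genes. It was 776, 690.4, 788 and 607 CPM in irradiated and 1626, 1789.8 and 1819 CPM in control tumors, without overlap, a change of -1.28 ± 0.17 (edgeR quasi-likelihood adjusted p = 0.0209). It was called in 6 of 13 alternatives, among them DESeq2 (adjusted p = 3.28e-10), and was not called in the other 7, among them the technical set as a term (0.0683) and the fits without irradiated 2 (0.196), irradiated 3 (0.161), irradiated 4 (0.251), control 1 (0.057) and control 3 (0.234). Its fold change was -1.34 to -1.21 over the 13 alternatives.

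In inflammatory macrophages Apoe, listed above, was lower in all 3 irradiated tumors than in both controls. The change was -0.65 ± 0.15 (edgeR quasi-likelihood adjusted p = 0.185) and -0.53 within set 2. Lpl and Gpnmb did not overlap either, but at 21.6% of all genes without overlap between groups of this size, such a gap was common. Fabp5 changed by -0.22 ± 0.20 and Cd9 by -0.37 ± 0.50 (edgeR quasi-likelihood adjusted p = 0.9998 for each), and Cd9 had the other sign in 2 of 10 alternatives. No member was called, against 0.0117% of 8573 genes, which was Serpinh1, a collagen chaperone, named after its values were seen.

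In monocytes Tyrobp was higher in each of 3 irradiated tumors than in each of 3 controls, with a change of 0.15 ± 0.18 (edgeR quasi-likelihood adjusted p = 0.997), and 11.3% of all genes were without overlap there. Trem2 changed by -0.25 ± 0.24 (adjusted p = 0.997) and Apoe by -0.31 ± 0.18 (adjusted p = 0.969). Set 1 has no irradiated tumor in this gate, and within set 2 the differences were 0.18 for Tyrobp, -0.29 for Trem2 and -0.43 for Apoe in log2(CPM + 1). No member was called, against 0.0228% of 4394 genes, which was Klf4, a transcription factor of the monocyte lineage, named after its values were seen. The irradiation effect in monocytes minus that in macrophages was 1.04 ± 0.28 for Cd9 (adjusted p = 0.107) and 0.69 ± 0.54 for Fabp5 (adjusted p = 0.992, edgeR), which became 1.68 (adjusted p = 0.00133) and 1.84 (adjusted p = 0.0164) without control 1. As reported with all tumors, no member differed in this interaction, against 0.0586% of 11952 genes. In the dendritic gate as first drawn no member and 0.0% of 6505 genes were called (247 at an unadjusted p under 0.05, 0 by DESeq2), and the lowest adjusted p of a member was 0.996. Within sets 1 and 2 the differences of this gate in log2(CPM + 1) were -1.18 and 1.33 for Trem2, -4.32 and 2.18 for Lpl and 0.72 and 1.12 for Apoe. The gate includes the 57 cells without Xcr1 or Clec9a, whose label their markers do not bear out. Those cells held 240 Lpl and 244 Trem2 UMIs, and the 246 other cells held 0 Lpl UMIs. The Lpl differences thus do not describe dendritic cells.

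In tumor cells the low levels of Trem2 and Apoe did not overlap between the groups. Trem2 was 1.58, 1.68, 2.09 and 1.35 CPM in irradiated and 3.86, 2.50 and 2.17 CPM in control tumor cells, and Apoe was 41.3, 26.3, 24.1 and 22.2 CPM against 58.0, 49.8 and 45.9 CPM, both without overlap, as for 2.03% of all genes. Tyrobp was 4.77, 3.09, 3.49 and 5.32 CPM against 7.99, 5.32 and 4.94 CPM. The changes were -0.78 ± 0.24 for Trem2, -0.87 ± 0.23 for Apoe and -0.58 ± 0.23 for Tyrobp (edgeR quasi-likelihood adjusted p = 1.00 for each), with no member and 0.0% of 17207 genes called (188 at an unadjusted p under 0.05, 0 by DESeq2). Within sets 1 and 2 they were -0.37 and -0.85, -0.21 and -1.23, and -0.09 and -0.88 in log2(CPM + 1), in the same order of genes. Against the effect in macrophages these differed by -0.69 for Trem2 (adjusted p = 0.834), -0.62 for Apoe (adjusted p = 0.965) and -0.52 for Tyrobp (adjusted p = 1.00, edgeR), and no member was called in this interaction, against 0.00615% of 16255 genes, which was Dlc1, named after its values were seen.

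**Figure D5:**
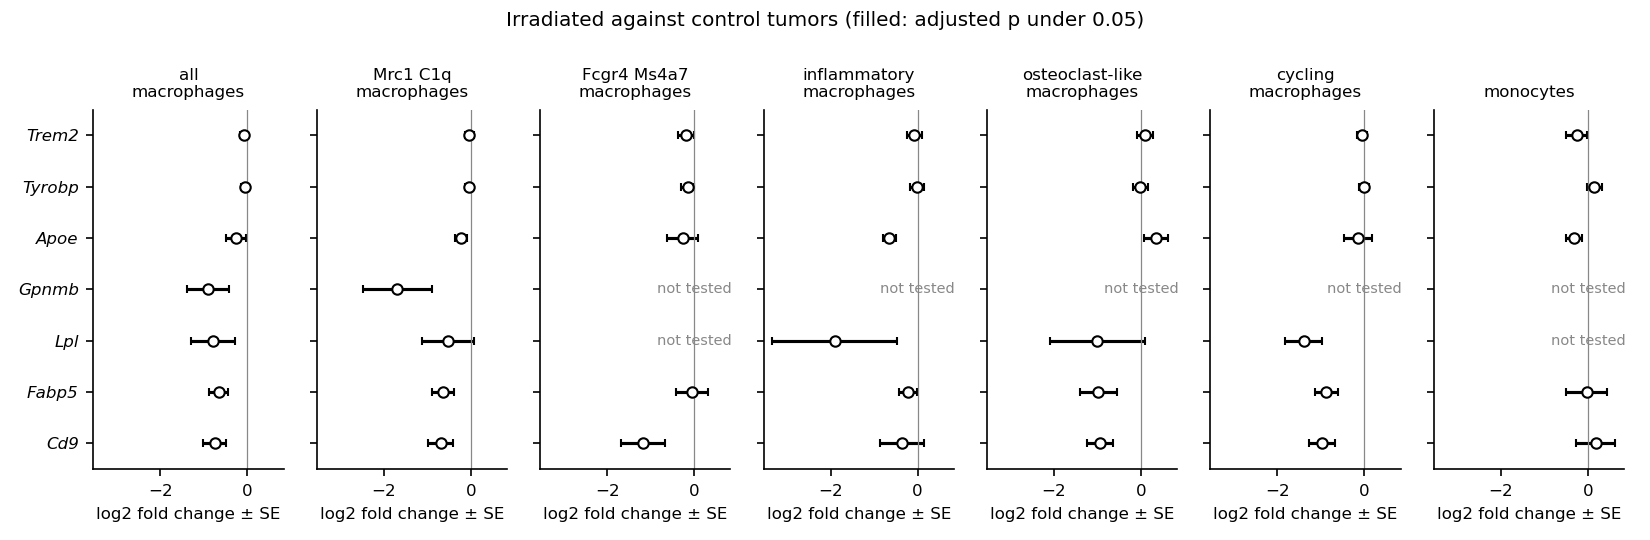
Log2 fold change of irradiated against control tumors with its SE for each member in 7 gates (edgeR quasi-likelihood test), all on 1 axis, open points with adjusted p of 0.05 or more. No point is filled, and Fabp5 and Cd9 lie at -0.66 and -0.76 in all macrophages and at -0.98 and -0.94 in the osteoclast-like gate.

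Across 70 sums of gate and tumor, over 11 gates, the levels of the members followed different genes. The Pearson correlation of log2(CPM + 1) between Trem2 and Apoe was 0.985, higher than with any other of 11739 genes. The next genes for Trem2 were Adgre1 (0.985) and Ms4a7 (0.977), both markers used in the macrophage gate. Tyrobp was closest to Fcer1g (0.993), the other adaptor of myeloid receptors, then Ctss (0.988), both phagocyte gate markers, and Cybb (0.987), the NADPH oxidase subunit of phagocytes. The sums share libraries and cell types, so these values describe the pattern over gates. Lpl was closest to Ctsf (0.765), a lysosomal cathepsin, Phyhd1 (0.748) and Slco2b1 (0.738). Cd9 was closest to Fnbp1l (0.848), Ccdc88a (0.840) and Nav1 (0.833), and Fabp5 to Mir99ahg (0.693), Nenf (0.686) and Anpep (0.682), none of them a phagocyte marker of the gates. Gpnmb followed no gene closely, with Txndc11 (0.446), Tet3 (0.403) and Zmat5 (0.388) at the top.

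Within macrophages thinned to 6000 UMIs (6036 cells), members were also compared cell by cell, as a description within libraries. The correlation of Trem2 and Apoe UMIs was 0.37 to 0.54 over the 7 tumors, positive in each, and that of Trem2 and Tyrobp was 0.14 to 0.28. Apoe and Cd9 had a negative one in each tumor, -0.25 to -0.04. Of cells with an Lpl UMI, 61.5 to 89.8% had a Cd9 UMI, compared with 25.0 to 56.6% of cells without Lpl, although the tumor with the fewest Lpl cells had 13.

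The other genes of the pathway were followed as 5 lists of 99 genes, with the 3 most abundant of each list in macrophages named. In monocytes against macrophages, the list of TREM receptors and TYROBP signaling had 6 genes higher and none lower of 17 tested, with a median log2 fold change of 0.23 against -0.15 over all genes. Syk, the kinase downstream of TYROBP, was at 373 to 668 CPM in monocytes and 249 to 357 CPM in macrophages (0.61 ± 0.12, edgeR quasi-likelihood adjusted p = 4.42e-06). Inpp5d, the phosphatase SHIP1 that restrains TREM2 signaling, was at 479 to 587 CPM in monocytes and 447 to 583 CPM in macrophages, and Ms4a6d at 374 to 738 and 337 to 514 CPM. The receptor was thus lower and the kinase higher in monocytes.

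Other genes of the lipid-associated program had 5 higher and 12 lower of 28 tested in monocytes, and lipoprotein and cholesterol genes 4 higher and 7 lower of 23. Ctsb, a lysosomal protease, was at 933 to 1445 CPM in monocytes and 2265 to 2616 CPM in macrophages, and Lgmn, another, at 1229 to 1850 against 2392 to 2797 CPM (-1.08 ± 0.11 and -0.82 ± 0.11, edgeR adjusted p = 2.38e-21 and 6.75e-13). Abca1, which exports cholesterol to apolipoproteins, was at 216 to 353 against 535 to 975 CPM (-1.56 ± 0.13, edgeR adjusted p = 5.24e-33). Pltp, the phospholipid transfer protein, changed by -2.43 ± 0.17 (edgeR adjusted p = 3.42e-43). Tetraspanins had 2 higher and 5 lower of 11, among them Cd81 (-3.33 ± 0.16, edgeR adjusted p = 4.64e-88) and Cd53 in the other direction (0.36 ± 0.12, edgeR adjusted p = 0.0130, lost without irradiated 2 at 0.119 and with every gene of at least 1 UMI at 0.129). Transcription factors had 3 higher and 3 lower of 12, with Cebpb at 0.78 ± 0.11 and Runx1 at 0.55 ± 0.11 (edgeR adjusted p = 4.25e-12 and 1.68e-05). Over all genes 17.3% were lower and 12.6% higher.

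In Fcgr4 Ms4a7 against Mrc1 C1q macrophages the signaling list had 7 higher and 1 lower of 17 tested, the other program genes 6 and 13 of 27, the lipoprotein genes 3 and 6 of 22, the tetraspanins 1 and 4 of 10 and the transcription factors 3 and 4 of 12, against 12.8% higher and 10.8% lower of all 10223 genes. Abca1 was lower by -1.06 ± 0.08, Lrp1, an apolipoprotein receptor, by -0.78 ± 0.08 and Ctsb by -0.69 ± 0.06 (edgeR quasi-likelihood adjusted p = 1.86e-10, 1.02e-08 and 4.76e-10), beside Apoe itself at -0.85. Ms4a6d was lower by -0.39 ± 0.07 (edgeR adjusted p = 3.3e-05). Cd81 was lower by -0.93 ± 0.19 (edgeR adjusted p = 0.0123, or 0.067 without the tumor block) and Pltp by -0.31 ± 0.09 (edgeR adjusted p = 0.00973), a call lost with stricter gates (0.324), without the tumor block (0.156) and without irradiated 4 (0.064).

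With irradiation none of the 5 lists had a gene called by edgeR in macrophages, of 19, 30, 24, 11 and 12 tested (8 in all at an unadjusted p under 0.05, and 1, Spp1, called by DESeq2). Their median log2 fold changes were 0.11 for TREM receptors and TYROBP signaling, -0.02 for the other program genes, 0.01 for lipoprotein genes, -0.00 for tetraspanins and -0.10 for transcription factors. The members' own median of -0.66 was further from 0 than that of any list, but over 7 genes it is the Fabp5 value. Trem2, Tyrobp and Apoe changed by -0.07, -0.05 and -0.27. Whether the members as a set differed from the lists was not tested.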

How the data were processed

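Single-cell RNA was measured with a 3′ droplet assay (v3.1 kit) in 7 libraries, 1 per tumor. The authors deposited UMI counts per gene and called cell. Their file headers name Cell Ranger 8.0.0. The paper names mm10 and an earlier version, so these counts may differ from those the study analysed, and whether intronic reads were counted is not given in the sources used here. The lowest deposited cell had 500 UMIs, and 52 of 33696 genes shared a symbol and were kept apart by identifier. Promoter windows are from RefSeq.

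The member genes, lists and gates were chosen with earlier results of these data known. Retained cells were gated by marker genes with at least 1 UMI. No doublet caller was run, and cells with several markers of a second lineage were left out of the phagocyte gates. UMI counts were summed per gate and tumor (at least 20 cells) and tested with the quasi-likelihood test of edgeR 4.0.16 in R 4.3.3 (robust, TMM, genes kept by filterByExpr), and p-values were adjusted by Benjamini-Hochberg across every gene tested, with calls under 0.05. Gates were compared with the tumor as a block, and no count was imputed. Shares at 3000 UMIs were compared by two-sided exact permutation of the tumors (Python 3.11.15). With 1 library per tumor, p-values measure the spread between tumors, and counting limits (3 UMIs for a count of 0) cover counting error only. Fits were tested on simulated data. Alternatives were DESeq2 1.42.0, other size factors, no filter on low genes, stricter gates, no cell filter, blocks, technical sets and leaving out each tumor.

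Named genes were the members in every comparison, the 3 genes of each list with the highest mean CPM in macrophages, and the 3 genes with the highest correlation with each member. Other names are said to have been chosen after their values were seen.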

Additional observations from a re-analysis of the deposited data

Results flagged for a closer look

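Among the groups of 4 irradiated tumors, 56 combinations of member and cell type were tested for a single tumor far from the other 3 (Dixon's ratio at its 95% critical value), which chance does in about 1 in 20. A tumor stood apart in 3 of them, each in a gene of few UMIs. Lpl in Fcgr4 Ms4a7 macrophages was 14.98 CPM in irradiated 1 and at most 2.52 CPM in the other 3. Gpnmb in cycling macrophages was 8.56 CPM in irradiated 4 and 0.445 to 0.907 CPM in the others. Gpnmb in dendritic cells was 1.72 CPM in irradiated 3, from 1 UMI, with no UMI in the others, which allows 4.25 to 7.92 CPM.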

How the results depend on the processing

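Fold changes of members were recomputed under each alternative, for a part of those tested. Of these, 926 kept their direction and side of the threshold, 21 newly passed it, 19 no longer did and 2 changed sign. These were Lpl in dendritic cells (-9.64 with Xcr1 or Clec9a cells only, a fitted value against 0 UMIs that is no bound) and Fabp5 in cells with at least 3 osteoclast markers (-0.34), both chosen after seeing the data. The latter cells gave 5081 calls against Mrc1 C1q macrophages. Member fold changes outside this count changed sign more often. Among them were Lpl in Fcgr4 Ms4a7 against Mrc1 C1q macrophages (8 of 13 alternatives) and, with irradiation, Fabp5 in monocytes (7 of 12) and Fcgr4 Ms4a7 macrophages (5 of 14). Tyrobp with irradiation in inflammatory macrophages did so in 5 of 10. The cause of these moves was not tested.

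Irradiation calls changed as follows. DESeq2 called 5 genes in macrophages, 1 in Fcgr4 Ms4a7, 0 in inflammatory, 2 in osteoclast-like and 1 in cycling macrophages and 2 in monocytes. With every gene of at least 1 UMI the calls were 4 in Mrc1 C1q, 37 in Fcgr4 Ms4a7, 61 in inflammatory, 81 in osteoclast-like and 75 in cycling macrophages, 8 in monocytes and 24 in dendritic cells, with 4 in the monocyte and 2 in the tumor cell interaction and 1033 for osteoclast-like against Mrc1 C1q macrophages. With the technical set as a term they were 1 in Fcgr4 Ms4a7, 14 in inflammatory and 0 in osteoclast-like macrophages. Stricter gates gave 1 in cycling macrophages and 0 in the tumor cell interaction. Without the tumor block, Fcgr4 Ms4a7, inflammatory and osteoclast-like macrophages gave 1506, 500 and 175 calls against Mrc1 C1q macrophages.

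The replicate block gave 0 calls in osteoclast-like macrophages, where Spp1 had an adjusted p of 0.990, and 24 in monocytes, and changed no member's call. Same-numbered tumors deviated with correlations of -0.41, -0.18 and -0.06 over 12599 genes, so they share only a number.

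Leaving out 1 tumor gave 0 to 0 irradiation calls in macrophages, dendritic cells and tumor cells, 0 to 1 in Mrc1 C1q, 0 to 3 in Fcgr4 Ms4a7, 0 to 24 in inflammatory, 0 to 2 in osteoclast-like and 0 to 3 in cycling macrophages and 0 to 4 in monocytes. Between gates it gave 2274 to 3157 calls for monocytes, 3418 to 3898 for dendritic cells and 12300 to 12716 for tumor cells against macrophages, and 1928 to 2524 for Fcgr4 Ms4a7, 950 to 1290 for inflammatory and 313 to 672 for osteoclast-like against Mrc1 C1q macrophages. The interactions gave 1 to 81 in monocytes and 0 to 1 in tumor cells.

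Shares (irradiated minus control, percentage points) changed sign without thinning for Trem2 (1.05), Tyrobp (0.512) and Gpnmb (0.109), and at 6000 UMIs for Tyrobp (0.0557). Leaving out 1 tumor they ran from -4.71 to -0.938 for Trem2, -0.977 to -0.195 for Tyrobp, -1.95 to -0.0126 for Apoe, -0.188 to -0.0686 for Gpnmb, -2.82 to -1.58 for Lpl, -11.9 to -7.09 for Fabp5 and -13.2 to -9.08 for Cd9.

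Stricter gates left too few tumors for inflammatory, osteoclast-like, monocyte and dendritic fits and the monocyte interaction, and the block for inflammatory macrophages, which were not run. Few UMIs of Gpnmb and Lpl limit what their levels can show.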

Other observations

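The pathway lists were also counted in the other comparisons between cell types. In inflammatory against Mrc1 C1q macrophages, 3 genes of TREM receptors and TYROBP signaling were higher and none lower of 17 tested, with 8 and 5 of 28 for the other lipid-associated genes, 3 and 5 of 22 for lipoprotein genes, 1 and 2 of 10 for tetraspanins and 2 and 3 of 12 for transcription factors, against 7.28% higher and 5.54% lower of all genes tested. In osteoclast-like against Mrc1 C1q macrophages, the first 3 lists and the transcription factors had 1 higher and 1 lower of 16, 4 and 2 of 26, 3 and 2 of 21 and 3 and 4 of 12, without a called gene among 10 tetraspanins (1, Cd81, at an unadjusted p under 0.05, and 0 by DESeq2), against 3.09% higher and 2.4% lower of all genes tested. Dendritic cells against macrophages had 0 higher and 10 lower of 17 signaling genes, 5 and 20 of 29 other lipid-associated genes, 2 and 13 of 22 lipoprotein genes, 3 and 4 of 11 tetraspanins and 1 and 6 of 12 transcription factors, against 15.6% higher and 18.2% lower of all genes tested. Tumor cells against macrophages had 0 higher and 18 lower of 18 signaling genes, 4 and 24 of 30 other lipid-associated genes, 2 and 21 of 25 lipoprotein genes, 2 and 8 of 11 tetraspanins and 1 and 11 of 12 transcription factors, against 43.7% higher and 41.2% lower of all genes tested. The counts are from the edgeR quasi-likelihood test over all genes.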
